A study of Araneus ventricosus with 24 samples.

Results

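The clusters described here are the members of the *Araneus ventricosus* transcriptome assembly annotated as enzymes of fatty acid synthesis, elongation, desaturation, activation and reduction. A cluster is an assembled transcript group with no genome position in the files. A cluster was taken when the description of its closest protein named fatty acid synthase, acetyl-CoA carboxylase, elongation of very long chain fatty acids, desaturase, fatty acyl-CoA reductase, long-chain-fatty-acid--CoA ligase or wax ester synthase. This gave 257 of the 142219 clusters, and no expression value was used to choose them. The study sequenced RNA of this orb-weaving spider after 30 days of exposure to cadmium, lead, or cadmium and lead together, with untreated spiders as controls. The libraries are labelled as ampullate gland, the silk gland that makes dragline silk, or as cerebral ganglia, the spider's brain. Each tissue had 3 cadmium libraries, 2 lead libraries, 2 libraries with both metals (called combined) and 3 untreated libraries. The labels used here give no dose, age or sex, nor whether each library is a different animal, and the p-values below rest on the spread between libraries, which may be technical.

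Fatty acids are built in the cytosol. Acetyl-CoA carboxylase makes malonyl-CoA, and the multidomain fatty acid synthase uses it to build saturated chains. Elongases, the condensing enzymes of the endoplasmic reticulum, lengthen them, desaturases insert double bonds, and acyl-CoA ligases activate free fatty acids. Fatty acyl-CoA reductases turn acyl-CoA into fatty alcohols, the precursors of waxes and ether lipids, and wax ester synthases join alcohol and acid. In arthropods these enzymes supply membranes, stored fat and the waterproofing lipids of the cuticle.

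Fatty acid synthase was the largest class with 75 clusters, followed by 53 elongases, 48 fatty acyl-CoA reductases, 44 desaturases, 31 long-chain acyl-CoA ligases, 5 acetyl-CoA carboxylases and 1 wax ester synthase. Of the 257, 20 were set apart as members of other organisms. They lay outside the main assembly group, Cluster-16698, and had no closest protein in the spider, mite, scorpion or horseshoe crab species listed for this. None of these passed the filter on low counts, and the most abundant had 40 counts over all libraries. The remaining 237 are called spider clusters here, and 215 had their closest protein in the spiders *Parasteatoda* or *Stegodyphus*. The assembly splits these genes. The 74 spider fatty acid synthase clusters had a median length of 630 bases, 51 of them were under 1000 bases and the longest reached 6238, so several clusters can be pieces of one gene or share reads between near-identical copies. Cluster counts are therefore not gene counts, and the split of reads between sister clusters is uncertain. Of the 53 elongase clusters, 51 carried the GNS1/SUR4 domain that defines the family. In other classes fewer clusters carried a domain expected for the class: 23 of 74 synthases, 26 of 48 reductases and 0 of 20 ligases. The remaining clusters of those classes rest on the description of the closest protein alone. Of the 38 spider desaturase clusters, 27 carried a fatty acid desaturase domain, while 3 members matched the word desaturase but were annotated as sphingolipid, cholesterol or plasmanylethanolamine desaturases. After filtering, 159 members were tested in gland, 123 in ganglia and 188 in the fit of both tissues, while 69 were tested in none.

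The libraries held between 14834065 and 20954478 counts, and 4 further columns of lead and combined libraries were exact copies of others and were not counted. Silk protein clusters summed to 42820–208800 CPM (counts scaled to a common library size) in gland libraries and 259.9–6894 in ganglia libraries. Nerve markers summed to 750.1–1212 CPM in gland and 2263–11100 in ganglia. The ganglia libraries also carried 34670–105700 CPM of muscle markers, against 1019–7121 in the gland. The fragment length implied by the deposited values separated libraries by lead: 277.3–278.4 bases with lead and 246.9–273.4 without it in the gland, and 271.2–281.2 with lead and 248–261.9 without it in the ganglia. No label names a batch, and what set this length cannot be told apart from lead exposure. Fewer cells of one type and less RNA per cell cannot be told apart in these bulk samples either.

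The leading fatty acid synthase and elongase clusters differed between the tissues, while the leading acetyl-CoA carboxylase cluster was the same. Together the 257 clusters took 0.161 ± 0.047% of counts in cadmium glands (SD, n = 3), 0.2 ± 0.048% in lead glands (n = 2), 0.272 ± 0.059% in combined glands (n = 2) and 0.102 ± 0.053% in untreated glands (n = 3). In the ganglia they took 0.83 ± 0.44% under cadmium, 0.588 ± 0.034% under lead, 0.77 ± 0.25% under both metals and 0.774 ± 0.4% in untreated samples, with the same numbers of libraries. The share was thus higher in every ganglia group than in any gland group, and the ganglia surplus lay in fatty acid synthase and elongases. Fatty acid synthase clusters took 0.226–0.351% of counts as ganglia group means, against gland group means of 0.00894–0.0632%.

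**Figure D1:**
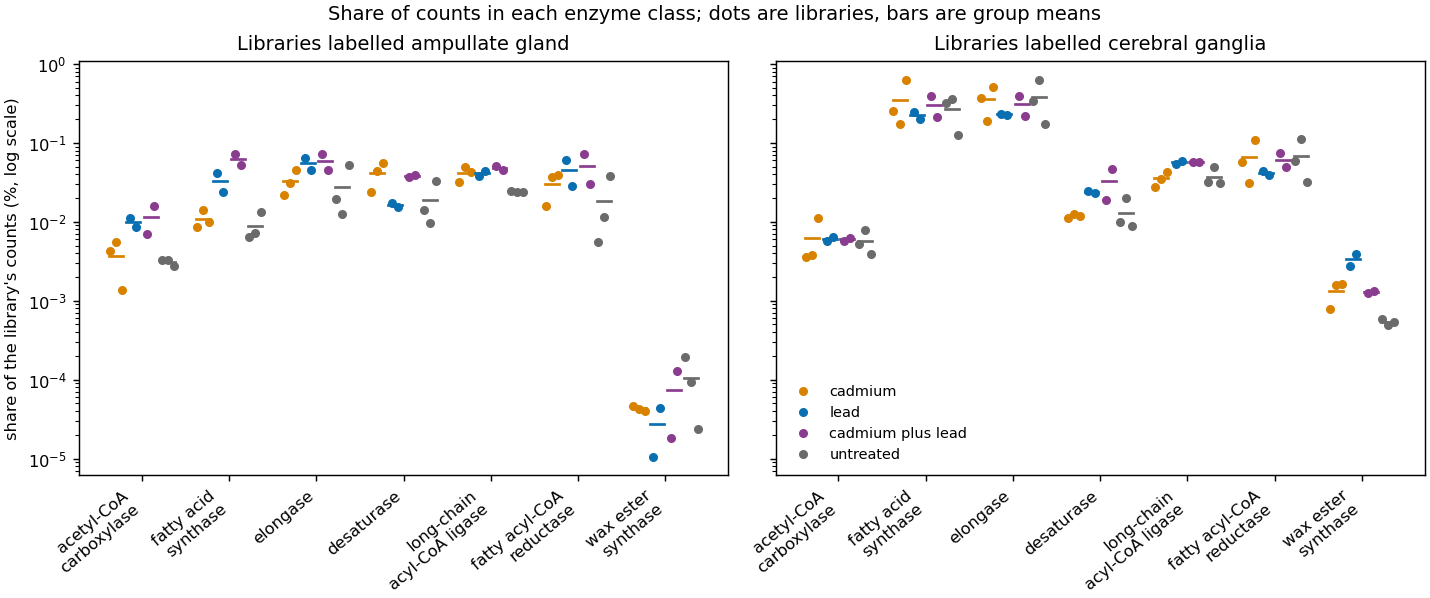
Share of each library's counts (percent, log scale) in 7 enzyme classes, for gland libraries (left) and ganglia libraries (right). Dots are libraries, bars are group means, and colours give the exposure; fatty acid synthase in the gland is highest in the 4 libraries with lead.

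In untreated spiders, edgeR's quasi-likelihood test with Benjamini-Hochberg adjustment called 4 members higher and 41 lower in gland than in ganglia. Over all 51904 clusters tested, 10.3% were called, with 3.91% higher and 6.35% lower in the gland. The 4 higher members were the elongase Cluster-16698.33528, the reductase Cluster-16698.33014, the ligase Cluster-16698.43355 and the desaturase Cluster-16698.49435. Their adjusted p-values were 0.0244, 0.0343, 0.0442 and 0.0419 (edgeR), and none of these calls held in every fit that left out a library. The 41 lower members were 20 elongases, 12 fatty acid synthases, 4 reductases, 3 ligases, 1 desaturase and the wax ester synthase. With the exposures averaged, 64 members were higher and 61 lower in the gland, against 15.8% and 18.4% of all clusters and 34.1% either way. By number of clusters called in this average, desaturases (19 higher, 2 lower) and reductases (21 higher, 6 lower) leaned to the gland. Elongases (14 higher, 25 lower), fatty acid synthases (8 higher, 18 lower) and ligases (2 higher, 9 lower) leaned to the ganglia. The untreated calls of desaturases were 1 higher and 1 lower in the gland. The mean desaturase share of counts was higher in gland than in ganglia except under lead, where it was 0.0164% against 0.0239%. The untreated calls of reductases leaned to the ganglia. The mean reductase share of counts was also higher in untreated ganglia (0.068%) than in untreated glands (0.0185%). No overlap at all between the 10 gland and the 10 ganglia libraries was seen for 35 of the 188 members, of which 2 were higher and 33 lower in the gland. Over all clusters, 1.51% were higher in every gland library and 4.94% lower. Members nearly unread in the gland or in the ganglia passed the filter on low counts only through libraries of the other tissue. The call and non-overlap counts between the tissues include such members and are description only.

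**Figure D2:**
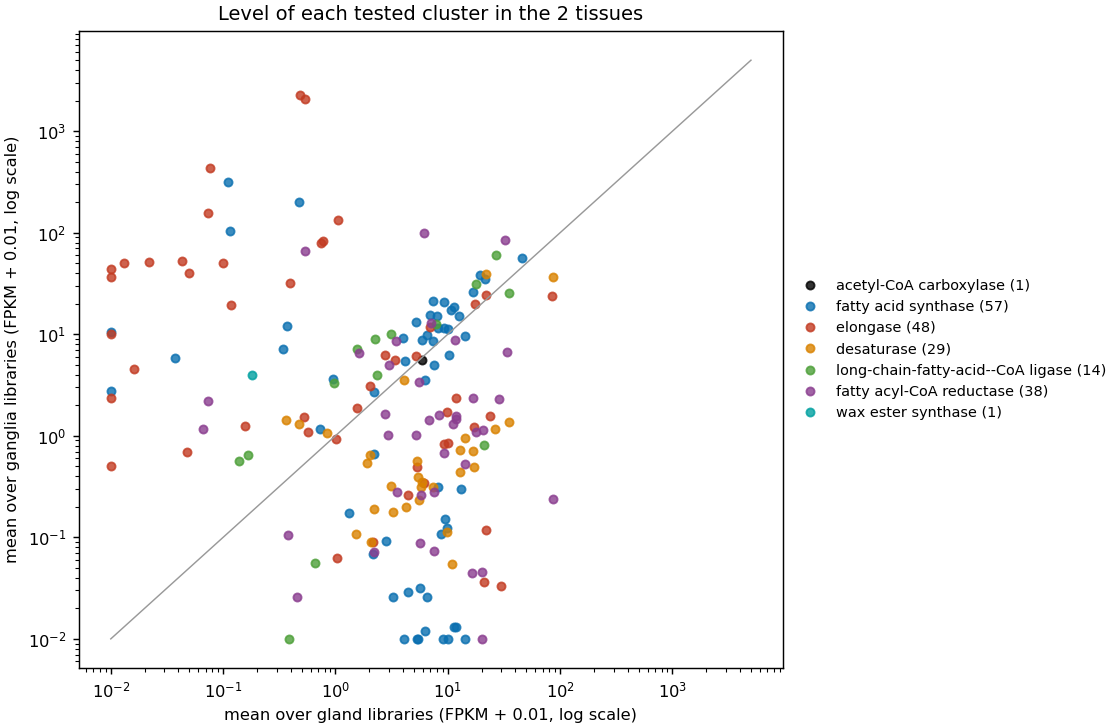
Mean deposited FPKM plus 0.01 of each member tested in both tissues together, over 10 gland libraries (horizontal, log scale) and 10 ganglia libraries (vertical, log scale). Points are clusters coloured by class and the line marks equal levels; a group of elongases and fatty acid synthases lies high on the vertical axis with gland levels near 0.

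Acetyl-CoA carboxylase rested on the same cluster in both tissues. Cluster-16698.51175, 11029 bases long with the enzyme's central domain, held 97.5% of the class's FPKM in the gland and 90.5% in the ganglia, while Cluster-16698.46003 and Cluster-16698.76702 did not exceed 0.502 CPM in any library. Levels of different clusters are set side by side in FPKM, the deposited length-scaled unit, which is raised for short clusters. With CPM per kilobase of full length, a choice made after seeing the data, the first cluster of each class and tissue stayed the same except for fatty acid synthase in the gland. The mean FPKM of Cluster-16698.51175 was 5.85 over gland libraries and 5.54 over ganglia libraries. The difference with exposures averaged was −0.01 ± 0.23 on the log2 scale (SE), with an adjusted p of 1 in edgeR's test, and the p says nothing of equality.

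The leading synthase clusters of the ganglia were nearly unread in the gland. The leading ganglia cluster, Cluster-16698.35549, has a thioesterase domain, the part of the synthase that releases the finished chain. Its level in the ganglia was 2207, 1141 and 4022 CPM under cadmium, 1065 and 738 under lead, 1138 and 813.9 under both metals, and 2665, 1983 and 1253 in untreated samples. No gland library exceeded 2.04 CPM for this cluster. In untreated spiders the difference of gland from ganglia was −12.7 ± 1.53 (log2, SE; adjusted p = 0.000218, edgeR). Cluster-16698.20039 and Cluster-16698.72526 showed the same tissue split, with untreated differences of −9.05 ± 1.2 and −9.53 ± 1.21. Per length, Cluster-16698.35549 averaged 318.5 FPKM in the ganglia, Cluster-16698.20039 200.5 and Cluster-16698.72526 103.1. These 3 clusters held 29.8%, 18.8% and 9.64% of the class's ganglia FPKM. The gland's synthase signal was spread more evenly, with the first cluster, Cluster-16698.43678, at 45.6 FPKM and 10.1% of the class. It is a thioesterase fragment of 323 bases that ranged between 1.87 and 169.9 FPKM over gland libraries. Cluster-16698.72540 and Cluster-16698.26143 were higher in the gland with exposures averaged, with gland maxima of 55.4 and 13.4 CPM, both in combined replicate 1, and ganglia maxima of 0.126 and 0.0785 CPM. Cluster-16698.72540 averaged 1.16 CPM in cadmium, 13.9 in lead and 35.3 in combined glands, and Cluster-16698.26143 averaged 0.931, 2.77 and 7.79 CPM. By CPM per kilobase of full length, Cluster-16698.45062 came first in the gland instead, with 16.1, or 6.56% of the class.

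The leading ganglia elongases showed the same split. Cluster-16698.19485 and Cluster-16698.74378, both closest to spider elongase 1, averaged 2287 and 2066 FPKM in the ganglia, which is 39.7% and 35.9% of the class. They are 504 and 445 bases long, and by CPM per kilobase of full length they still came first, with 36.1% and 28% of the class. The levels of Cluster-16698.19485 in the ganglia were 816.8, 234.7 and 735.7 CPM under cadmium, 334.8 and 277.1 under lead, 720.4 and 290.2 under both metals, and 698.1, 1393 and 249.5 in untreated samples. In the gland no library exceeded 0.458 CPM for it. Cluster-16698.19376, closest to an elongase 7, had 0 counts in all gland libraries and 15006 in the ganglia, so it was at least 5060-fold lower in the gland (floor of 3 counts over the group). Cluster-16698.74365 had at most 0.363 CPM in gland libraries and 329.7–1496 CPM in ganglia libraries. For Cluster-16698.55178 the ranges were 2.18–12 CPM in gland libraries and 347.1–1890 CPM in ganglia libraries. Cluster-16698.74398, Cluster-16698.19364, Cluster-16698.19366, Cluster-16698.19050 and Cluster-16698.17300 did not exceed 0.147 CPM in any gland library and lay between 4.56 and 224.1 CPM in the ganglia. Libraries of one ganglia group differed several-fold for Cluster-16698.19485, and of the 7 exposed libraries only the one at 234.7 CPM lay outside the untreated range.

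The elongase with the highest gland mean was read in both tissues. Cluster-16698.47051 averaged 83.9 FPKM in the gland, 25.6% of the class, had 17.4–102.2 CPM in ganglia libraries, and was 1.97 ± 0.38 higher in gland than in ganglia with exposures averaged (log2, SE; adjusted p = 0.000719, edgeR). In untreated spiders the difference was 0.91 ± 0.66 with an adjusted p of 0.39. Cluster-16698.71320 reached 107.5 CPM in a combined gland library and at most 0.706 CPM in any ganglia library, but its untreated gland values were 0, 0.0654 and 9.7 CPM, which overlap those of the ganglia. Cluster-16698.47546 and Cluster-16698.22605 were of the same kind, with gland maxima of 66.2 and 40.8 CPM, ganglia maxima of 0.198 and 0.0627 CPM, and 0 CPM in at least 1 untreated gland. In cadmium, lead and combined glands, Cluster-16698.71320 averaged 5.05, 62.2 and 58.2 CPM, and Cluster-16698.47546 12.1, 46.9 and 51.3 CPM. For Cluster-16698.22605 these means were 2.24, 13.8 and 21.35 CPM. The gland levels of these elongases were thus mostly those of libraries with lead.

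Desaturases had more clusters called higher than lower in the gland with exposures averaged. Cluster-16698.45761, a delta-9 acyl-CoA desaturase by description, the kind that introduces the first double bond, averaged 86.6 FPKM over gland libraries and 36.8 over ganglia libraries. Its gland values were 53.2, 71.9 and 444.7 CPM under cadmium, 49.7 and 34.9 under lead, 70.3 and 75.7 under both metals, and 13.9, 5.82 and 268.5 in untreated samples. Untreated gland replicate 3 thus lay far above the other untreated glands and inside the range of the exposed ones. Cluster-16698.48778, closest to stearoyl-CoA desaturase 5, led in the ganglia with 39.3 FPKM. Cluster-16698.49435 had 2.01, 1.44 and 6.61 CPM in untreated glands and 0.33, 0.69 and 0 in untreated ganglia, a difference of 3.24 ± 0.97 (log2, SE; adjusted p = 0.0419, edgeR).

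Reductases included a gland set and a ganglia set. Cluster-16698.67345 led in the gland with 86.8 FPKM, or 18.9% of the class. Its gland values were 1.57, 27.6 and 3.39 CPM under cadmium, 334.8 and 121.2 under lead, 355.8 and 60.6 under both metals, and 0.95, 0.458 and 44.9 in untreated samples. No ganglia library exceeded 0.564 CPM, and the cluster was 8.02 ± 1.1 higher in gland with exposures averaged (log2, SE; adjusted p = 6.53e-05, edgeR). Cluster-16698.64800, Cluster-16698.26463 and Cluster-16698.33014 were also higher in the gland with exposures averaged, with gland maxima of 40.6, 11.9 and 45.4 CPM and ganglia maxima of 0.0958, 0.0478 and 0.317 CPM. Cluster-16698.64800 averaged 0.935 CPM in cadmium, 22.5 in lead and 23.7 in combined glands. For Cluster-16698.26463 these means were 0.349, 5.75 and 7.46 CPM, so both had higher means in glands with lead than with cadmium alone. The lead libraries differed widely, with SDs of 22.3 CPM for Cluster-16698.64800 and 6.08 CPM for Cluster-16698.26463. Neither was called for the average lead effect in the gland. Of the 3, only Cluster-16698.33014 was among the members called higher in untreated glands. That call did not hold in every fit that left out a library. Cluster-16698.38478 had 0.391, 1.96 and 205.5 CPM in untreated glands, so untreated replicate 3 stood apart here too. Cluster-16698.28776 had 1121 counts in the gland and 0 in the ganglia, at least 369-fold higher in the gland. Of the 1121 counts, 443 were in lead, 479 in combined and 52 in cadmium glands. In the ganglia, Cluster-16698.66766 led with 99.4 FPKM, and Cluster-16698.35558, closest to the FAR1 reductase that in mammals makes the alcohols of ether lipids, averaged 66.8 FPKM. Cluster-16698.35558 lay between 163 and 558.1 CPM in ganglia libraries and between 0.516 and 8.83 in gland libraries, with no overlap.

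The most abundant long-chain acyl-CoA ligases were read in both tissues, while 11 of the 14 tested were called with exposures averaged, as counted above. Cluster-16698.49412 averaged 35.3 FPKM over gland libraries and 25.7 over ganglia libraries. For Cluster-16698.45274 the means were 26.7 FPKM over gland libraries and 60.6 over ganglia libraries. Cluster-16698.43355 was 4.91 ± 0.68 higher in the gland with exposures averaged (log2, SE; adjusted p = 5.08e-05, edgeR). The wax ester synthase cluster, Cluster-16698.65513, takes its name from an *Arabidopsis* protein and carries both domains of that acyltransferase family, while its closest spider protein is uncharacterized. It averaged 0.169 FPKM over gland libraries and 3.92 over ganglia libraries. The difference of gland from ganglia with exposures averaged was −4.65 ± 0.37 (log2, SE; adjusted p = 1.25e-07, edgeR).

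In the gland, lead went with higher fatty acid synthase and acetyl-CoA carboxylase. The average lead effect compares the lead and combined libraries with the cadmium and untreated ones. It called 19 members higher and 0 lower, where 1.68% of the 44505 clusters tested were called in either direction, 1.05% higher and 0.631% lower. The 19 were 15 fatty acid synthases, the acetyl-CoA carboxylase, 1 elongase, 1 desaturase and 1 reductase. The median log2 difference was 0.62 over the 159 members and 2.01 over the 51 synthase clusters, against −0.16 over all clusters. Of the 159 members, 33 were higher in all 4 libraries with lead than in all 6 without it and 3 were lower, against 6.06% and 5.15% of all clusters. Synthases made up 24 of the 33. Clusters with next to no counts without lead, such as Cluster-16698.5712, passed the filter on low counts only through libraries with lead. The counts of called members, the medians and the non-overlap counts include such members. They are description only, here and in the comparisons with untreated glands below. Without a filter, the synthase share of counts averaged 0.0329% in lead, 0.0632% in combined, 0.011% in cadmium and 0.00894% in untreated glands.

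**Figure D3:**
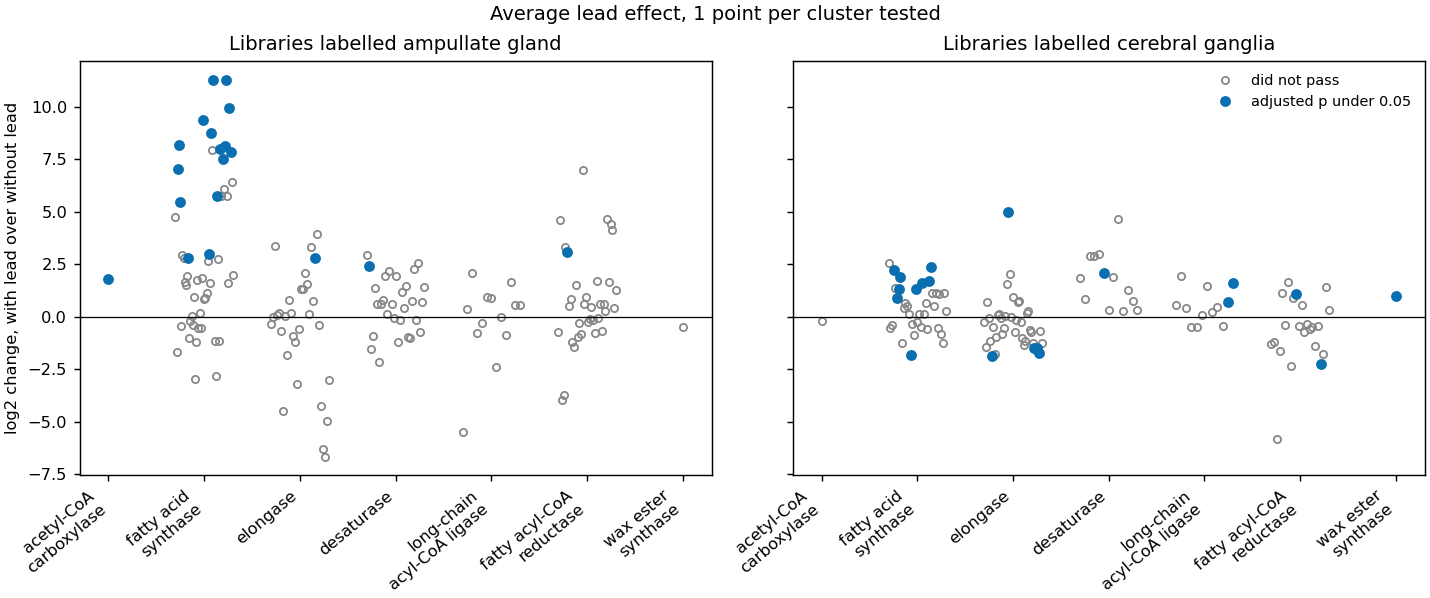
Average lead effect (log2 difference, libraries with lead over libraries without it) in the gland and in the ganglia, one point per cluster tested and one column per enzyme class, with called clusters marked. In the gland the synthase points reach past 10 on the log2 scale, and in the ganglia the called elongases lie on both sides of 0.

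One group of synthase clusters was read almost only in glands with lead. Cluster-16698.6081, of 1983 bases with an N-terminal thiolase domain, which belongs to the condensing-enzyme fold, had 0, 0.174 and 0 CPM in cadmium glands, 90.7 and 21.3 in lead glands, 67 and 33.4 in combined glands, and 0 in each of the 3 untreated glands. Every library with lead was above every library without it. It was at least 824-fold higher in lead than in untreated glands and at least 836-fold higher in combined than in untreated glands (floor of 3 counts over the group). The adjusted p was 0.162 for lead alone, 0.0491 for both metals and 0.0152 for the average lead effect (edgeR).

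Cluster-16698.87549 repeated this pattern. It had 0 CPM in each cadmium gland, 77.3 and 18.9 in lead glands, 82.4 and 25.9 in combined glands, and 0, 0 and 0.185 in untreated glands. Summed counts were 3393 with lead and 3 without, a ratio, scaled for library size, of 1640 with a 95% counting interval of 563 to 7970 (adjusted p = 0.0168 for the average lead effect, edgeR). Cluster-16698.5712 had no count in any gland library without lead and was at least 149-fold higher with it (adjusted p = 0.0237, edgeR). Cluster-16698.85654 had 473 counts with lead and 2 without, a ratio of 344 with an interval of 95.2 to 2840 (adjusted p = 0.0104, edgeR). Counting intervals and floors cover counting error only.

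Cluster-16698.87565, Cluster-16698.6069, Cluster-16698.20355, Cluster-16698.87687, Cluster-16698.72541 and Cluster-16698.72539 were also called in this group, with adjusted p-values between 0.0199 and 0.047 (edgeR). In lead and combined glands, Cluster-16698.87565 had the widest range, 7.41–152.5 CPM, against at most 0.61 CPM in any gland without lead. Of all 257 members, 5 had over 3 counts in each of the 4 lead-exposed glands and at most 3 counts in each of the 6 others, and all 5 were synthases. This is 1.95% of the members, against 0.121% of all 142219 clusters. In the other direction there was 1 member, the elongase Cluster-16698.74698, which is 0.389% of the members against 0.13% of all clusters. Members also passed the filter on low counts in the gland more often, 159 of 257 against 44505 of 142219 clusters. Ganglia libraries held next to none of the group higher with lead: Cluster-16698.6081 and Cluster-16698.87549 peaked there at 0.0478 CPM. Cluster-16698.72539 was the exception, with 3.35–18.8 CPM in cadmium, 3.95 and 5.99 in lead, 4.97 and 14.8 in combined and 2.9–25.5 in untreated ganglia.

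A second synthase group was read in all glands and was higher with lead. Cluster-16698.57789 had 2.25, 3.79 and 2.51 CPM in cadmium glands, 20.7 and 18.1 in lead glands, 16.7 and 17.1 in combined glands, and 1.51, 4.52 and 0.68 in untreated glands. The 4 libraries with lead did not overlap the 6 without it. The average lead effect was 2.98 ± 0.49 (log2, SE; adjusted p = 0.0278, edgeR). Cluster-16698.34788 rose by 2.82 ± 0.56 (adjusted p = 0.0422).

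Acetyl-CoA carboxylase, the committing enzyme, rose with lead too. Cluster-16698.51175 had 36, 50 and 15.9 CPM in cadmium glands, 128.4 and 90 in lead glands, 83.7 and 112.4 in combined glands, and 26.9, 37.2 and 28.9 in untreated glands. All libraries with lead stood above all without it, and cadmium and untreated glands overlapped. The average lead effect was 1.8 ± 0.35 (log2, SE; adjusted p = 0.0422, edgeR).

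The other gland calls were single members of their classes. The elongase Cluster-16698.64563 had 5.88, 4.66 and 4.68 CPM under cadmium, 42.6 and 34.2 under lead, 71.3 and 8.33 under both metals, and 3.52, 4.25 and 12.9 in untreated glands. One untreated library therefore exceeded the lower combined library, while the average lead effect was 2.81 ± 0.58 (log2, SE; adjusted p = 0.0459, edgeR). The reductase Cluster-16698.30017 rose by 3.08 ± 0.59 (adjusted p = 0.0413). The desaturase called, Cluster-16698.22725, is annotated as the plasmanylethanolamine desaturase, which in mammals makes the vinyl ether bond of plasmalogens and not a fatty acyl double bond, and rose by 2.41 ± 0.51 (adjusted p = 0.0498).

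No member passed as lower with lead in the gland. The ligase Cluster-16698.43390, closest to spider ligase 5, had 49.2, 37.4 and 113.8 CPM in cadmium glands, 6.36 and 14.7 in lead glands, 14.2 and 3.63 in combined glands, and 46, 22.3 and 58.7 in untreated glands. Every library with lead was below every library without it, with a difference of −2.38 ± 0.56 (log2, SE; adjusted p = 0.063, edgeR). The elongase Cluster-16698.74698 had 3 counts with lead and 93 without it, a level 21.3-fold lower with lead with a 95% counting interval of 7.3 to 103 (adjusted p = 0.0795, edgeR). The synthase fragment Cluster-16698.43678 had at most 0.958 CPM in glands with lead and at least 2.35 in glands without it, a difference of −2.99 ± 0.83 (adjusted p = 0.0898).

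**Figure D4:**
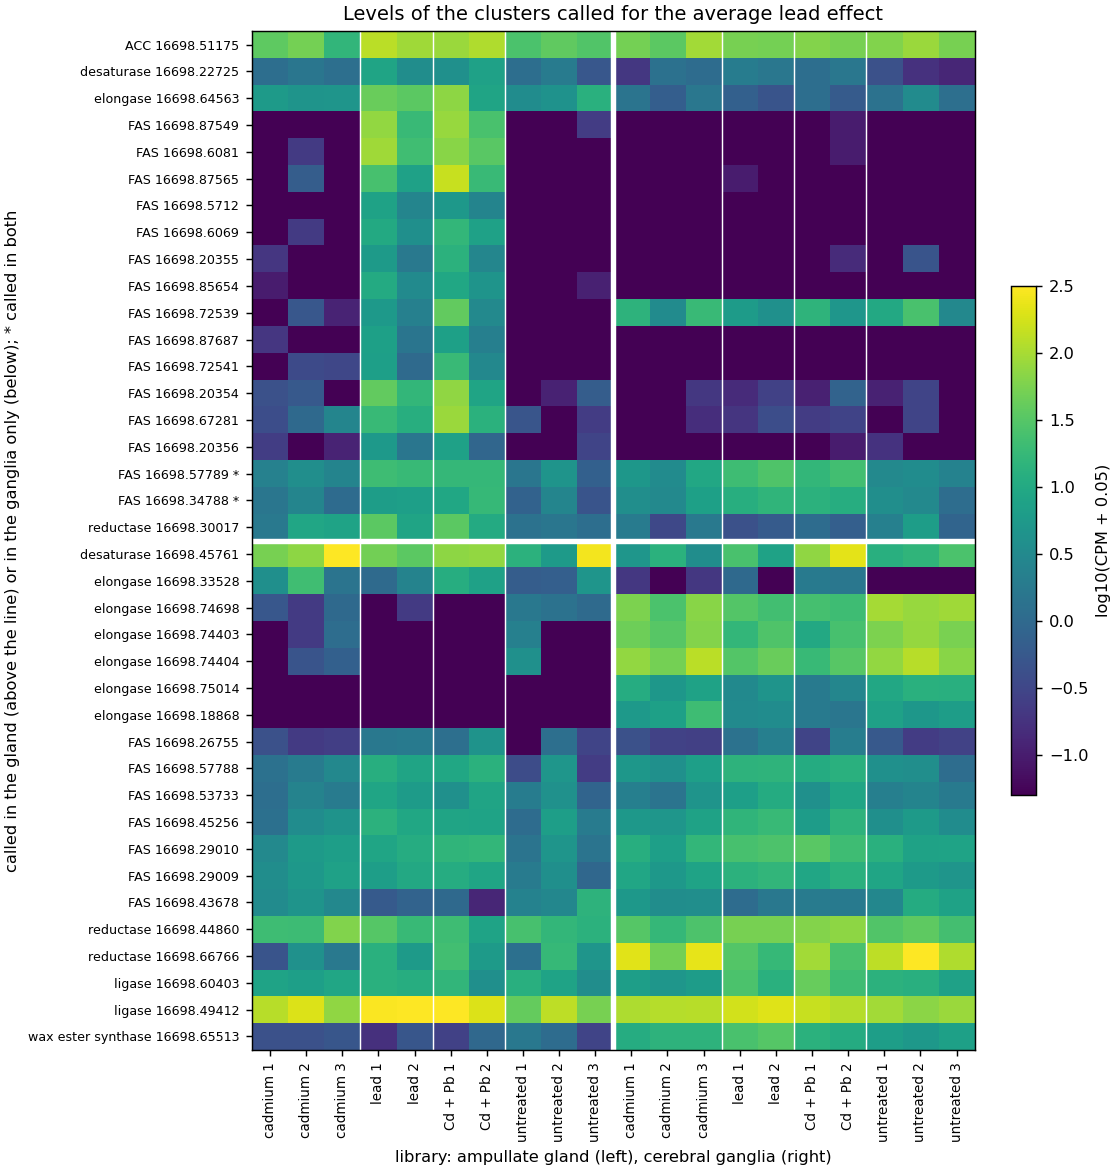
Level of each cluster called for the average lead effect in either tissue (rows) in the 20 libraries (columns), as log10 of CPM plus 0.05 (ACC, acetyl-CoA carboxylase; FAS, fatty acid synthase; Cd + Pb, combined). Columns run cadmium, lead, combined and untreated within gland and then ganglia; a block of synthase rows is bright in the 4 gland libraries with lead and dark elsewhere, except Cluster-16698.72539, which is also read in ganglia.

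The gland calls depended on which libraries were used. Leaving out a library can move the calls over all clusters as well, and that share is not given beside such counts here or below. They show how stable the calls were and are not a result about these members. The 19 calls became 0 without cadmium replicate 1 or without cadmium replicate 3, 5 without cadmium replicate 2, 7 without combined replicate 2, 8 without lead replicate 1, 31 without untreated replicate 2 and 33 without untreated replicate 3. Combined replicate 1 held the highest value of 55 of the 159 members, or 34.6%, against 7.22% of all clusters. Some other cell type markers moved with the same libraries. Ampullate spidroin clusters, a narrower silk list chosen after these values were seen, averaged 5249 CPM in untreated glands, against 108900 for all silk clusters. They summed to 4591–14960 CPM in cadmium, 32260–35580 in lead, 27310–39030 in combined and 482.9–14540 in untreated glands. All silk clusters together overlapped between glands with and without lead. Their sums were 102100–125300 CPM in cadmium, 92010–154400 in lead, 66660–92820 in combined and 42820–208800 in untreated glands. Muscle markers summed to 3482–4849 in cadmium, 1019–1744 in lead, 2178–2331 in combined and 3655–7121 in untreated glands. Fat body and yolk markers summed to 112.7–242.2 CPM in cadmium, 247.6–267.2 in lead, 321.1–616.1 in combined and 57.1–155.7 in untreated glands. Hemolymph markers summed to 826.8–5451 CPM in cadmium, 458.4–716 in lead, 816.5–1866 in combined and 1250–8535 in untreated glands. Their part in the lead difference was not tested.

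Single exposures gave few calls in the gland. Combined against untreated called 2 members, Cluster-16698.6081 and Cluster-16698.85654, both higher, against 0.225% of all clusters, with 0.119% higher and 0.106% lower. All combined libraries lay above all untreated ones for 75 of 159 members and below for 6, against 15.2% and 14% of all clusters. The median log2 difference in that comparison was 2.31 over members and −0.04 over all clusters. It called none without any one of the 3 cadmium libraries, combined replicate 2, untreated replicate 1 or untreated replicate 2, and it called 9 without lead replicate 1, 12 without lead replicate 2 and 11 without untreated replicate 3. Lead against untreated called 0 members and 0% of clusters by edgeR, while DESeq2 called 22 members higher and 3 lower, with 4.04% of all clusters. At an unadjusted p under 0.05, 40 members were higher and 5 lower, against 7.11% and 4.76% of all clusters. Both lead libraries lay above all untreated ones for 53 members and below for 8, against 15.5% and 14.2% of all clusters.

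Cadmium in the gland called 0 members and 0% of clusters by edgeR. At an unadjusted p under 0.05, 32 members were higher and 0 lower, against 2.31% of all clusters higher and 0.55% lower, and DESeq2 called 5 members and 0.218% of all clusters. All 3 cadmium libraries lay above all 3 untreated ones for 30 of 159 members and below for 1, against 4.85% and 3.77% of all clusters. These 30 included 11 of 29 desaturases and 12 of 34 reductases. The median log2 difference was 0.98 over members and 0.07 over all clusters. The reductase Cluster-16698.52999 had the smallest p, with 9.16, 12.9 and 10 CPM in cadmium glands and 0.67, 0.72 and 0.185 in untreated glands, a difference of 4.42 ± 0.86 (log2, SE) that did not pass (adjusted p = 1, edgeR). It also had 13.1 and 8.06 CPM in combined glands and 0.182 and 1.62 in lead glands, so the 5 libraries with cadmium stood above the 5 without it. The desaturase Cluster-16698.22248 had 0.294, 1.35 and 2.04 CPM in cadmium glands, 0 and 0.174 in lead glands, 4.35 and 5.17 in combined glands and 0 in all untreated glands, at least 19.9-fold higher with cadmium than without treatment, and likewise did not pass (adjusted p = 1).

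The cadmium effect averaged over lead exposure called 0 members and 0% of clusters in the gland by edgeR, and 9 members and 0.652% of clusters by DESeq2. At an unadjusted p under 0.05 it had 46 members higher and 0 lower, against 2.27% and 1.31% of all clusters. Desaturases had a median log2 difference of 2.58 and reductases 1.44 in that comparison, against 0.07 over all clusters. The departure of the combined exposure from the sum of both metals called 0 members and 0% of clusters in the gland by edgeR, and 1 member and 0.146% of clusters by DESeq2. At an unadjusted p under 0.05, 2 members were higher and 3 lower, against 0.618% and 1.18% of all clusters. The smallest p belonged to the ligase Cluster-16698.27076 and the elongase Cluster-16698.77100, both under 4 CPM in every gland library, and neither passed (adjusted p = 1 for both, edgeR).

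In the ganglia, lead went with higher levels of several synthases, 2 ligases and the wax ester synthase and with lower levels of several elongases. The average lead effect called 14 members higher and 7 lower of 123, against 6.54% and 5.69% of the 38659 clusters tested and 12.2% either way, so the share of members called was near that of all clusters. Among synthases 8 rose and 1 fell, and among elongases 1 rose and 5 fell. The median log2 difference was 0.49 for synthases and −0.55 for elongases, against −0.04 over all clusters. All 4 libraries with lead were above all 6 without it for 8 members and below for 6, against 6.15% and 5.91% of all clusters.

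The synthase with the smallest p was the same as one called in the gland. Cluster-16698.57789 had 5.09, 3.41 and 9.41 CPM in cadmium ganglia, 21 and 28.5 in lead ganglia, 16.6 and 22.5 in combined ganglia, and 3.03, 3.45 and 2.35 in untreated ganglia, with no overlap between libraries with and without lead. Its average lead effect was 2.37 ± 0.28 (log2, SE; adjusted p = 0.00291, edgeR), and each of the 10 fits that left out a library called it. Cluster-16698.34788 had 3.78, 3.005 and 7.14 CPM in cadmium ganglia, 12.2 and 15.3 in lead ganglia, 13.8 and 11.7 in combined ganglia, and 3.76, 3.07 and 1.1 in untreated ganglia, again without overlap, and rose by 1.9 ± 0.34 (adjusted p = 0.0112). Both clusters were called in both tissues. Cluster-16698.57788, Cluster-16698.45256, Cluster-16698.53733, Cluster-16698.29010 and Cluster-16698.26755 rose in the ganglia by between 1.32 and 2.2 on the log2 scale. The thioesterase fragment Cluster-16698.43678 fell by 1.83 (SE 0.39; adjusted p = 0.0182, edgeR). The abundant synthase Cluster-16698.35549 was not among the called clusters.

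Elongases formed most of the falls. Cluster-16698.74698, closest to an elongase 7, had 55.3, 26.1 and 67.7 CPM in cadmium ganglia, 30 and 22.3 in lead ganglia, 24.2 and 20.9 in combined ganglia, and 98.4, 83.2 and 89.6 in untreated ganglia. The untreated libraries were above all exposed ones, and 1 cadmium library lay among those with lead. Its average lead effect was −1.48 ± 0.27 (log2, SE; adjusted p = 0.0111, edgeR). Cluster-16698.75014 had 11.3, 5.09 and 7.67 CPM in cadmium, 3.16 and 4.56 in lead, 1.76 and 2.77 in combined, and 9.56, 13 and 12.2 in untreated ganglia, and fell by 1.72 (SE 0.29; adjusted p = 0.00914). Here every library with lead was below every library without it. Cluster-16698.74403, Cluster-16698.74404 and Cluster-16698.18868 fell by 1.5, 1.52 and 1.85. The elongase that rose, Cluster-16698.33528, was at 0 in all untreated ganglia and did not exceed 1.76 CPM in any ganglia library.

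Ligases activate fatty acids for both storage and breakdown. Cluster-16698.49412, closest to human ACSL1 among curated proteins, had 106.2, 118.2 and 124.6 CPM in cadmium ganglia, 176.1 and 206.9 in lead ganglia, 149.1 and 118.8 in combined ganglia, and 92.6, 68 and 85.4 in untreated ganglia. Exposed libraries were above the untreated ones throughout, with lead highest. It rose by 1.21 ± 0.25 under lead against untreated (log2, SE; adjusted p = 0.0316, edgeR). Cluster-16698.60403, closest to the ACSL3 ligase, rose by 1.59 ± 0.28 on average with lead (adjusted p = 0.0104), with 6.63, 4.91 and 6.24 CPM in cadmium, 26.2 and 13 in lead, 42 and 21 in combined, and 13.6, 12.6 and 7.53 in untreated ganglia. Its lead and untreated libraries overlapped, and its cadmium libraries were the lowest.

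The wax ester synthase cluster showed its highest values under lead alone. Cluster-16698.65513 had 11.1, 14.5 and 14.1 CPM in cadmium ganglia, 25.5 and 31.8 in lead ganglia, 13.4 and 11 in combined ganglia, and 6.79, 5.33 and 7.14 in untreated ganglia. All exposed libraries were above the untreated ones, and the lead libraries were above the rest. The difference of lead from untreated was 2.14 ± 0.26 (log2, SE; adjusted p = 0.0129, edgeR). That of cadmium from untreated was 1.05 ± 0.24 and did not pass (adjusted p = 0.62). The departure of the combined exposure from the sum of both metals was −2.28 ± 0.38 with an adjusted p of 0.37.

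The remaining ganglia calls were the delta-9 desaturase Cluster-16698.45761, which rose by 2.08 ± 0.5 on average with lead (log2, SE; adjusted p = 0.0287, edgeR), and a pair of reductases. For the desaturase, cadmium ganglia held 4.86, 13.5 and 3.54 CPM, lead ganglia 25.7 and 7.59, combined ganglia 73.7 and 219.4, and untreated ganglia 12.4, 15.2 and 26.8, so the lead and untreated libraries overlapped. The reductase Cluster-16698.44860 rose by 1.09 ± 0.21 (adjusted p = 0.0139). The reductase Cluster-16698.66766, the most abundant per length in the ganglia, fell by 2.26 (SE 0.59; adjusted p = 0.0377), with 30.5 and 17.3 CPM under lead against 134.1, 345.7 and 109.7 untreated.

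**Figure D5:**
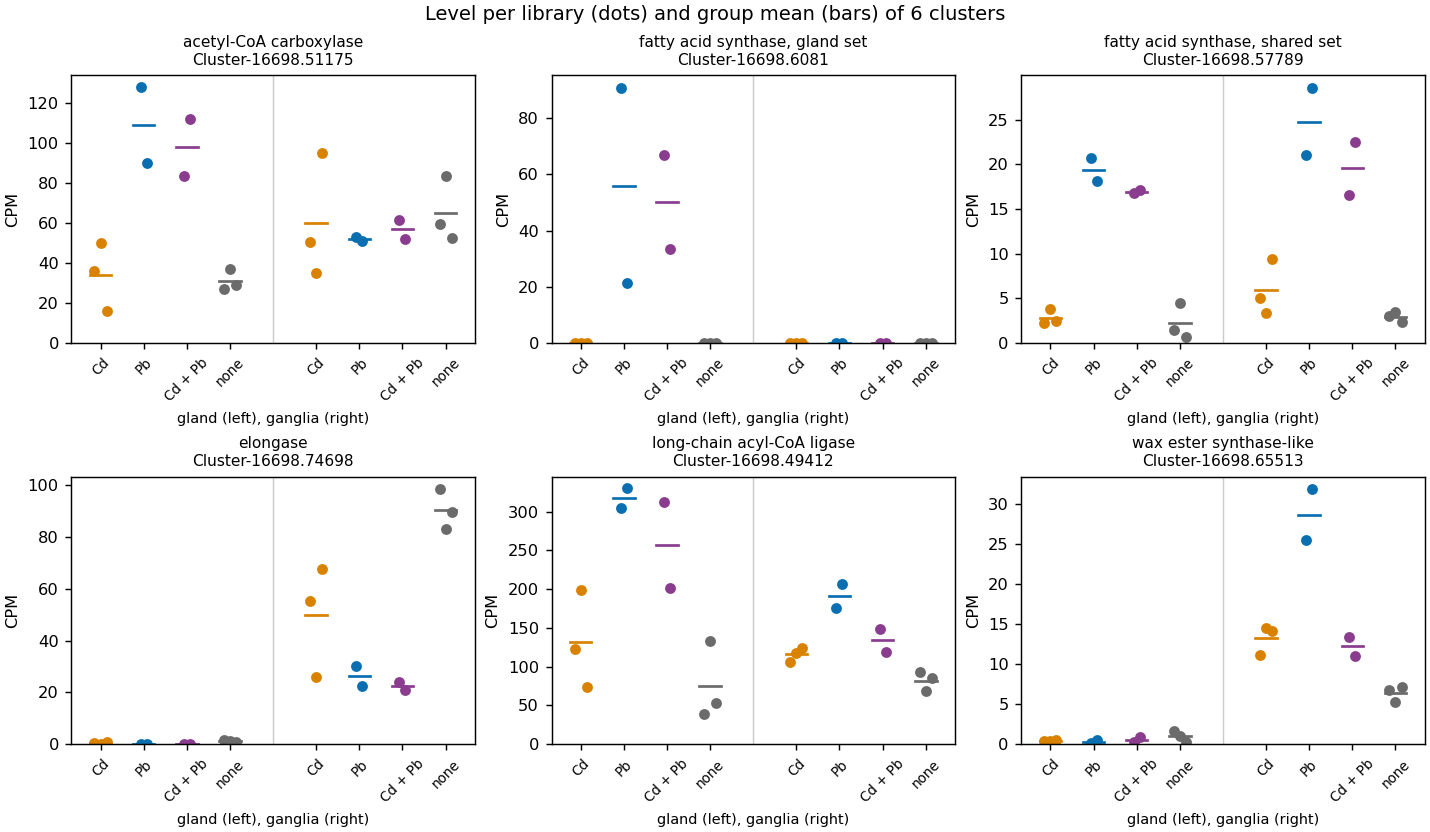
CPM of 6 clusters in every library, gland on the left and ganglia on the right of each panel, ordered cadmium, lead, combined and untreated. Dots are libraries, bars are group means, Cd is cadmium, Pb lead and none untreated; Cluster-16698.6081 is seen in lead-exposed glands, Cluster-16698.57789 is higher with lead in both tissues and Cluster-16698.74698 is highest in untreated ganglia.

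Against untreated ganglia, lead alone called 6 members higher and 4 lower, where 4.92% of all clusters were called, 2.67% higher and 2.24% lower. Both lead libraries lay above all untreated ones for 22 members and below for 31, against 23.7% and 21% of all clusters. The 4 called lower were the elongases Cluster-16698.74698, Cluster-16698.50261 and Cluster-16698.41907 and the synthase fragment Cluster-16698.43678. The 10 calls became 0 without either lead library, 2 without untreated replicate 3 and 6 without untreated replicate 1. The combined exposure called 1 member higher, Cluster-16698.57789, and 2 lower, Cluster-16698.74698 and Cluster-16698.75014, against 1.06% of all clusters, with 0.587% higher and 0.468% lower. All combined libraries lay above all untreated ones for 32 members and below for 17, against 21.1% and 18.2% of all clusters. The test called none without combined replicate 2, untreated replicate 1 or untreated replicate 3, and 1 without cadmium replicate 3, combined replicate 1, either lead library or untreated replicate 2. The average lead calls were 4 without lead replicate 1, 7 without lead replicate 2 and 10 without combined replicate 2. Cuticle markers ranged widely in combined ganglia, with 310.2 and 12230 CPM, against 79.8–157.1 in cadmium, 120.4–300.2 in lead and 200.7–280.9 in untreated ganglia. Midgut markers summed to 1190–2944 CPM in cadmium, 3225–4380 in lead, 5516–5878 in combined and 1285–3945 in untreated ganglia. Silk clusters summed to 840.2–4964 CPM in cadmium, 259.9–827.2 in lead, 2859–3336 in combined and 1534–6894 in untreated ganglia. Ampullate spidroins summed to 608.6–3503 in cadmium, 169.4–282.2 in lead, 626–1835 in combined and 1146–5134 in untreated ganglia. Fat body and yolk markers summed to 271.8–405.8 CPM in cadmium, 527.9–673.1 in lead, 625.4–1056 in combined and 476.4–789.8 in untreated ganglia. The part of these markers in the differences was not tested.

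Cadmium called no member in the ganglia. Against untreated, edgeR called 0 members and 0% of clusters, and DESeq2 called 1 member higher and 4 lower, with 0.323% of all clusters. At an unadjusted p under 0.05, 4 members were higher and 15 lower, against 3.55% and 4.07% of all clusters. All cadmium libraries lay above all untreated ones for 3 members and below for 16, against 5.31% and 6.04% of all clusters. The reductase Cluster-16698.75712 had 5.4, 3.76 and 6.45 CPM in cadmium ganglia and 14.1, 10.5 and 14.4 in untreated ganglia, a difference of −1.32 ± 0.29 (log2, SE) that did not pass (adjusted p = 0.62, edgeR). The elongase Cluster-16698.50261 had a difference of −2.26 ± 0.4 with the same adjusted p. Fat body and yolk markers, given above, were also lower in every cadmium library than in any untreated one, and their part was not tested. The cadmium effect averaged over lead called 0 members by edgeR and 0 by DESeq2, which called 0.0724% of all clusters, with 3 higher and 4 lower at an unadjusted p under 0.05, against 1.89% and 1.48% of all clusters. The smallest p belonged to the elongase Cluster-16698.14932, with 2.05 ± 0.47, and to Cluster-16698.75712, with −0.71 ± 0.22 (log2, SE), and neither passed (adjusted p = 1 for both, edgeR). The departure from additivity called 0 members in the ganglia by edgeR and 9 by DESeq2, which called 1.01% of all clusters, with 21 higher and 5 lower at an unadjusted p under 0.05, against 6.29% and 3.85% of all clusters.

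The difference between the tissues in the lead effect was tested directly. edgeR called 0 members, against 0.0424% of all clusters. At an unadjusted p under 0.05, 16 members were higher and 16 lower in gland than in ganglia, against 3.18% and 8.6% of all clusters. DESeq2 called 9 higher and 5 lower, with 2.42% of all clusters. The smallest p belonged to the synthase Cluster-16698.72539, with a difference of 8.75 ± 1.57 (log2, SE; adjusted p = 0.0661), and to the elongase Cluster-16698.64563, with 3.87 ± 0.78 (adjusted p = 0.0786), and neither passed.

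The other genes of lipid metabolism were counted for the average lead effect, where 1.05% of all gland clusters were called higher and 0.631% lower, and 6.54% and 5.69% of all ganglia clusters. In the gland, 3 of 40 beta-oxidation clusters, which break fatty acids down, were called higher and none lower. Of 25 clusters for lipid storage and carriage 1 rose. Of 9 for the supply of acetyl-CoA and NADPH and 11 for control of the pathway none was called, and of 7 for the other steps of the elongation cycle 1 fell. In the ganglia, 5 of 36 beta-oxidation clusters rose and 3 fell, 2 of 25 storage clusters rose and 1 fell, 2 of 11 control clusters rose, 1 of 8 elongation-cycle clusters fell and none of 9 supply clusters was called. The elongation cycle had a median log2 difference of −0.65 in the ganglia and 0.08 in the gland.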

How the data were processed

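The values deposited by the authors are expected counts and FPKM per assembled cluster. The header of the FPKM table names no unit; it was inferred from the values, which follow the counts per library size and cluster length, raised for short clusters. Which assembler, aligner and counter made them is not given in the sources used here. Beside the closest protein, the deposited annotation gives alignment scores, which were not used. Per the labels' protocols, RNA was column-purified, made into libraries with the SMARTER mRNA-Seq kit and sequenced on a NovaSeq.

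Expected counts were rounded. Of 24 columns, 4 equalled another column in every cluster and were left out, leaving 20 libraries of 14834065 to 20954478 counts. Counts were filtered with filterByExpr, scaled by TMM and fitted with edgeR 4.0.16 (limma 3.58.1, R 4.3.3, robust quasi-likelihood, one mean per group), within each tissue and over both. P-values were adjusted over all clusters tested and called under 0.05. CPM use the joint scaling; standard errors come from the F statistic. Tables used Python 3.11.15, pandas 2.3.3 and numpy 2.4.6. Alternatives were other scalings and filters, DESeq2 1.42.0, a replicate block, other sets of libraries and leaving out each library. The fitting step was tested on simulated data.

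Named are the called members, up to 10 each way by size, the 2 with the smallest p where none was called, the most abundant of each class, and the 3 of smallest p each way for the average lead effects. Members, pathway lists and marker lists were chosen with earlier results of these data known, the ampullate spidroin list after these values were seen. Outside this rule, Cluster-16698.20039, Cluster-16698.22725, Cluster-16698.30017, Cluster-16698.44860 and Cluster-16698.45062 were named after their values were seen. Members set apart as those of other organisms were not named.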

Additional observations from a re-analysis of the deposited data

How the results depend on the processing

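No named value changed direction: of the alternatives tried on named members, 1745 stayed on their side of the threshold, 50 passed it newly, 269 no longer passed and 0 reversed. The counts of called members moved more. A change of setting also moves the calls over all clusters: for lead against untreated glands, edgeR called 0% of them and DESeq2 4.04%. The counts of called members in this section stand without that share, so they are not a result about the members. Leaving out each library gave 0 to 33 calls for the average lead effect in the gland (19 with all libraries), 0 to 12 for combined and 0 to 1 for lead against untreated glands. Where this left a group with 1 library, that library was assumed to vary like the other groups. In the ganglia, leaving out each library gave 4 to 21 for the average lead effect (21 with all), 0 to 12 for lead and 0 to 2 for combined against untreated. The test of the lead effect between tissues gave 0 to 4, untreated gland against ganglia 34 to 53, and all exposures 112 to 127. Without a filter beyond a count of 1, the gland calls were 9 for cadmium, 25 for lead, 44 for combined, 42 for average lead, 14 for average cadmium and 2 for departure from additivity. The ganglia calls were then 5, 30, 26, 43, 2 and 13 for the same comparisons, and the test between tissues called 15. DESeq2 called 5, 25, 45, 45, 9 and 1 in the gland, and 5, 23, 20 and 36 for the first 4 in the ganglia, 9 for departure and 14 between tissues. Counting all 24 columns as libraries, copies included, called 22 for lead, 39 for combined and 52 for average lead in the gland. In the ganglia it called 35 for lead, 24 for combined, 40 for average lead and 6 for departure, and 15 between tissues. With only the groups compared, combined called 0 in either tissue and lead 1 in the ganglia. Leaving out silk clusters gave 0 for combined glands, and a minimum of 1 CPM in at least 3 libraries gave 1. The cause of these changes was not tested. RLE scaling moved the median of all clusters for lead against untreated glands to −0.27, against −0.15 with TMM, and the members' median to 0.67, against 0.75.

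Libraries share replicate numbers, but within a tissue, same-numbered libraries of different exposures did not deviate together. Their correlations ran from −0.17 to 0.23 in the gland and from −0.22 to 0.16 in the ganglia. Whether gland and ganglia libraries of the same number and exposure are paired was not examined. The tests between tissues took all libraries as independent. With the number as a replicate block, calls were 0 for combined and 2 for average lead in the gland, and 4 for lead, 0 for combined and 12 for average lead in the ganglia.

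Groups of 2 libraries, clusters that split one gene, unknown doses, and a fragment length that differs with lead limit these comparisons. Depth limits clusters with few counts in one group, whose fold is a lower bound or has a wide counting interval.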
